A study of Glycine max with 18 samples.

Results

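The 150 genes described here were higher in embryonic axes of soybean (Glycine max) germinated with paclobutrazol (PBZ) than in water controls at both 24 and 36 hours after imbibition (HAI). They were taken from 56044 genes by their values at these times. A gene qualified when its mean was at least 1 RPKM (read density scaled for transcript length and library size) in both PBZ groups and when each PBZ library exceeded each control library at 24 HAI and again at 36 HAI. Of 29364 genes with that PBZ level at both times, 228 qualified, or 0.776%. The 150 with the largest weaker rise were kept, where a rise is the mean log2(RPKM + 0.1) with PBZ minus that of the control and the weaker one is the smaller of the rises at 24 and 36 HAI. The values at 24 and 36 HAI therefore chose the genes and are given as a description, with no test of the set. The values at 12 HAI took no part in the choice.

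The libraries came from axes of cultivar BRS 284 that had been separated from the cotyledons. PBZ groups were seeds imbibed with 200 µM PBZ for 12, 24 or 36 h, and each had a control group imbibed in water for the same time. Each of the 6 groups had 3 replicates, 18 libraries in all, and each replicate pooled the axes of seeds from several plates. The groups of one time were handled alike except for the drug. Its action on gibberellin synthesis, its other actions and any difference in how far the axes had advanced in germination cannot be told apart by this design. In such bulk tissue, more cells of a type and more transcript per cell cannot be told apart. Markers of axis cell types were not analysed here, because the identifiers in the value table carry no names.

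PBZ is a triazole that blocks kaurene oxidase, a cytochrome P450 that acts early in gibberellin (GA) synthesis. GA promotes germination and elongation of the embryonic axis by binding the receptor GID1, which leads to the breakdown of DELLA repressors. Late GA synthesis runs through GA 20-oxidases and GA 3-oxidases, and GA 2-oxidases inactivate the hormone. Brassinosteroids (BR) are steroid hormones that also promote elongation, and several steps of their synthesis are carried out by other cytochrome P450 enzymes.

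The libraries differed in depth and in the share of organellar gene copies, and that share differed in other ways at 24 than at 36 HAI. Relative depth, read from the smallest steps between values under 0.15 RPKM, ranged between 0.812 and 2.87 times that of the first 24 HAI control library, and the absolute depth is unknown from RPKM. Nuclear copies of chloroplast and mitochondrial genes, 43 genes of which 0 were among the 150, made up 0.241 to 0.423% of the summed RPKM with PBZ at 24 HAI, against 0.0252 to 0.0357% in the control. That share separated the 24 HAI groups completely, so at 24 HAI it and the treatment cannot be told apart. At 36 HAI it was 0.0240 to 0.0396% with PBZ, against 0.0209, 0.0256 and 0.290% in control replicates 1, 2 and 3, so control replicate 3 stood apart. At 12 HAI it was 0.200 to 0.357% with PBZ, against 0.442, 0.0843 and 0.331% in the control, where replicate 2 stood apart and was also the deepest library of the series. With these 43 genes left out and the libraries rescaled, 148 of the 150 genes were chosen again. Without 36 HAI control replicate 3, 590 genes qualified in place of 228 and 81 of the 150 were among the first 150, so the boundary of the set depends on that library. Without it the 150 had a median change of 0.69 at 36 HAI, compared with 0.66 over all libraries.

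At 24 HAI the median rise of the 150 was 0.52 on the log2(RPKM + 0.1) scale, while the median change of all 31148 genes tested was -0.07. At 36 HAI the median rise was 0.66, while that of all 32752 genes tested was 0.04. As ratios of group means, the median was 1.59 at 36 HAI, and 1.44 at 24 HAI over the 149 genes whose control was not listed at 0 throughout. The set is therefore mostly one of moderate differences: 80 genes had a weaker rise under 0.5, and 14 had a rise of at least 1 at both times. The weaker rise was the one at 24 HAI in 105 genes and the one at 36 HAI in 45 genes. Every PBZ library exceeding every control library was common among all genes at a single time, 11.4% at 24 HAI and 11.0% at 36 HAI. The opposite order was found in 22.8% of genes at 24 HAI and in 4.77% at 36 HAI.

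**Figure D1:**
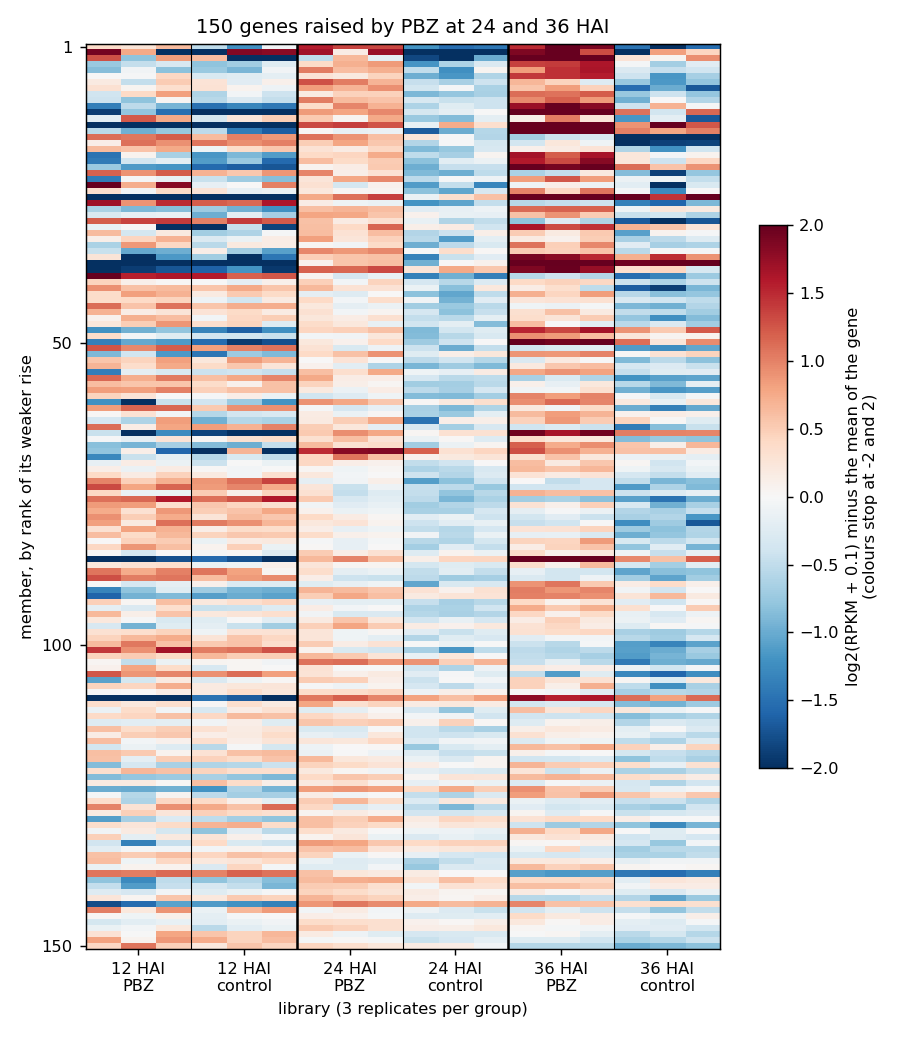
Heat map of the 150 genes (rows, by rank of the weaker rise) in 18 libraries (columns, 3 per group, PBZ left of control at each time), coloured by log2(RPKM + 0.1) minus the mean of the gene over all libraries. The PBZ columns at 24 and 36 HAI are redder than their controls, as the choice requires, except where both reach the end of the colour scale. The 12 HAI columns of PBZ and control look alike in most rows.

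Where the ranking ended, the members at ranks 148 to 150 were Glyma.19G247600, Glyma.14G071200 and Glyma.17G062600, with weaker rises of 0.253, 0.252 and 0.250. The qualifying genes left just outside were Glyma.13G135500, Glyma.06G312300 and Glyma.09G202600, with 0.247, 0.246 and 0.242. The values fall off without a gap, so the number 150 marks no natural border.

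Annotation in the tables of the study was found for 48 of the 150, and 102 are given by identifier alone. The tables used annotate 1998 genes, among them genes the study had called different in these samples. The study made such calls at each time, the earliest included. Being annotated, and so being in a family, may therefore depend partly on the values at any time. Annotated members were mostly of higher rank: 34 of the 50 first-ranked genes had an annotation, against 2 of the 50 last-ranked. The families below describe the annotated genes and give no share for the set.

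The gene with the largest weaker rise was Glyma.10G282200, annotated as an FAD/NAD(P)-binding oxidoreductase. At 24 HAI it had 16.6, 14.1 and 14.0 RPKM with PBZ, against 2.35, 1.84 and 1.96 RPKM in the control. At 36 HAI it had 15.7, 24.4 and 20.5 RPKM with PBZ, against 1.92, 1.22 and 1.83 RPKM in the control. The groups lay far apart at both times, with log2 changes of 2.81 ± 0.13 and 3.53 ± 0.22 (SE). This gene was already apart at 12 HAI, a time the choice did not use, with 7.14, 6.57 and 8.54 RPKM with PBZ, against 3.84, 2.30 and 5.30 RPKM in the control. The 12 HAI change was 1.01 ± 0.28 (SE), with an unadjusted p of 0.0067 in limma and an adjusted p of 0.86 over all genes. Its PBZ level was higher at 36 than at 12 HAI by 1.42 on the log2 scale, while its control level was lower at 36 HAI, with a change of -1.10.

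The second rank was held by an unannotated gene near the detection limit. Glyma.15G180100 had 2.04, 0.640 and 2.09 RPKM with PBZ at 24 HAI and was listed at 0 in each control library. At 36 HAI it had 2.33, 2.70 and 1.53 RPKM with PBZ, against 0, 1.08 and 0.794 RPKM in the control. Since its control is listed at 0, no fold is given, and its rank rests on the pseudocount. At 12 HAI it was listed at 0 in 1 library of each treatment and reached 2.41 RPKM with PBZ and 2.30 RPKM in the control.

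The third rank was Glyma.18G177000, a cinnamyl-alcohol dehydrogenase related to Arabidopsis ELI3-2, a family that reduces aromatic aldehydes. It had 1.20, 2.80 and 1.51 RPKM with PBZ, against 0.421, 0.294 and 0.823 RPKM in the control at 24 HAI. At 36 HAI both treatments were higher, with 11.9, 9.51 and 14.3 RPKM with PBZ, against 2.14, 1.82 and 3.39 RPKM in the control. The 12 HAI values were scattered, 4.35, 0.950 and 3.17 RPKM with PBZ, against 2.72, 0.0548 and 0.211 RPKM in the control, and overlapped although the mean log2 change was 2.27 ± 1.03 (SE). The alpha/beta-hydrolase Glyma.13G210000 differed in this respect. It had 3.22, 3.87 and 4.32 RPKM with PBZ, against 3.06, 3.30 and 4.59 RPKM in the control at 12 HAI, a change of 0.07 ± 0.20 (SE). By 36 HAI it had 14.2, 14.5 and 16.8 RPKM with PBZ, against 5.30, 3.35 and 4.64 RPKM in the control, with the control close to its 12 HAI level.

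Enzymes that reduce or oxidise small molecules made up the first group of annotated genes, with 8 members. Their median log2 change was 1.24 at 24 HAI and 1.45 at 36 HAI. At 12 HAI 7 of the 8 had a higher mean with PBZ, with a median of 0.38. In 5 of them each PBZ library exceeded each control library. These orders held in 47.4% and 3.82% of all genes tested. Annotation may depend partly on the 12 HAI values, so these family counts are a description and were not tested. Glyma.13G109800 corresponds to OPR3, which in Arabidopsis reduces 12-oxophytodienoate in the synthesis of jasmonic acid. It had 12.7, 9.55 and 10.2 RPKM with PBZ, against 4.37, 2.58 and 6.40 RPKM in the control at 24 HAI. At 36 HAI it had 11.1, 17.2 and 19.5 RPKM with PBZ, against 5.08, 4.49 and 4.70 RPKM in the control. At 12 HAI the groups overlapped, 3.40, 5.87 and 3.45 RPKM with PBZ, against 3.65, 3.24 and 5.90 RPKM in the control, so its separation was seen at the later times alone.

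A pair of oxidoreductase genes lies 4 gene models apart on chromosome 3. Glyma.03G099000, a zinc-binding dehydrogenase, had 31.7, 32.6 and 35.4 RPKM with PBZ, against 8.82, 5.24 and 7.42 RPKM in the control at 36 HAI. Glyma.03G098600, annotated as alkenal reductase (AER), an enzyme that in Arabidopsis detoxifies reactive carbonyls, had 58.9, 32.5 and 36.8 RPKM with PBZ, against 16.2, 15.2 and 21.0 RPKM in the control at 24 HAI. The 2 genes ran in different directions over time: with PBZ, Glyma.03G099000 changed by 1.36 and Glyma.03G098600 by -1.40 between 12 and 36 HAI on the log2 scale. At 12 HAI both were higher in all PBZ libraries. Glyma.03G099000 had 11.7, 11.7 and 15.7 RPKM with PBZ, against 9.52, 9.94 and 10.3 RPKM in the control, and Glyma.03G098600 had 68.0, 56.0 and 69.6 RPKM with PBZ, against 48.7, 43.6 and 55.5 RPKM in the control.

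Glyma.12G019800, an alcohol dehydrogenase-related protein with a Rossmann fold, showed the steepest time course of the annotated members. With PBZ it had 5.43, 11.2 and 9.71 RPKM at 12 HAI, 83.4, 106 and 127 RPKM at 24 HAI and 392, 291 and 457 RPKM at 36 HAI. In the control it had 4.20, 4.06 and 2.82, 45.0, 61.9 and 73.7 and 226, 134 and 245 RPKM at these times. The climb between 12 and 36 HAI was thus of similar size in both treatments, 5.46 with PBZ and 5.71 in the control on the log2 scale, and PBZ was above the control throughout. This gene had the lowest unadjusted p of the members at 12 HAI, 0.0029, at a change of 1.18 ± 0.28 (SE). Its adjusted p was 0.82.

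Aldo-keto reductases, which act on carbonyl groups, were the most abundant. Glyma.03G248400, annotated as perakine reductase, had 1182, 932 and 1409.8 RPKM with PBZ, against 604, 368 and 552 RPKM in the control at 36 HAI and was the most highly expressed gene of the set. At 12 HAI it had 1178, 1157 and 1421 RPKM with PBZ, against 975, 1007 and 1021 RPKM in the control, without overlap. Between 12 and 36 HAI it changed by -0.11 with PBZ and by -1.01 in the control on the log2 scale. In between, at 24 HAI, both treatments were lower than at 12 HAI, with 848, 807 and 905 RPKM with PBZ, against 683, 596 and 738 RPKM in the control. Glyma.01G102600, an aldo-keto reductase of family 4, had 475, 442 and 477 RPKM with PBZ, against 286, 242 and 277 RPKM in the control at 36 HAI and overlapping values at 12 HAI, 332, 279 and 339.7 RPKM with PBZ, against 309, 292 and 300.3 RPKM in the control.

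**Figure D2:**
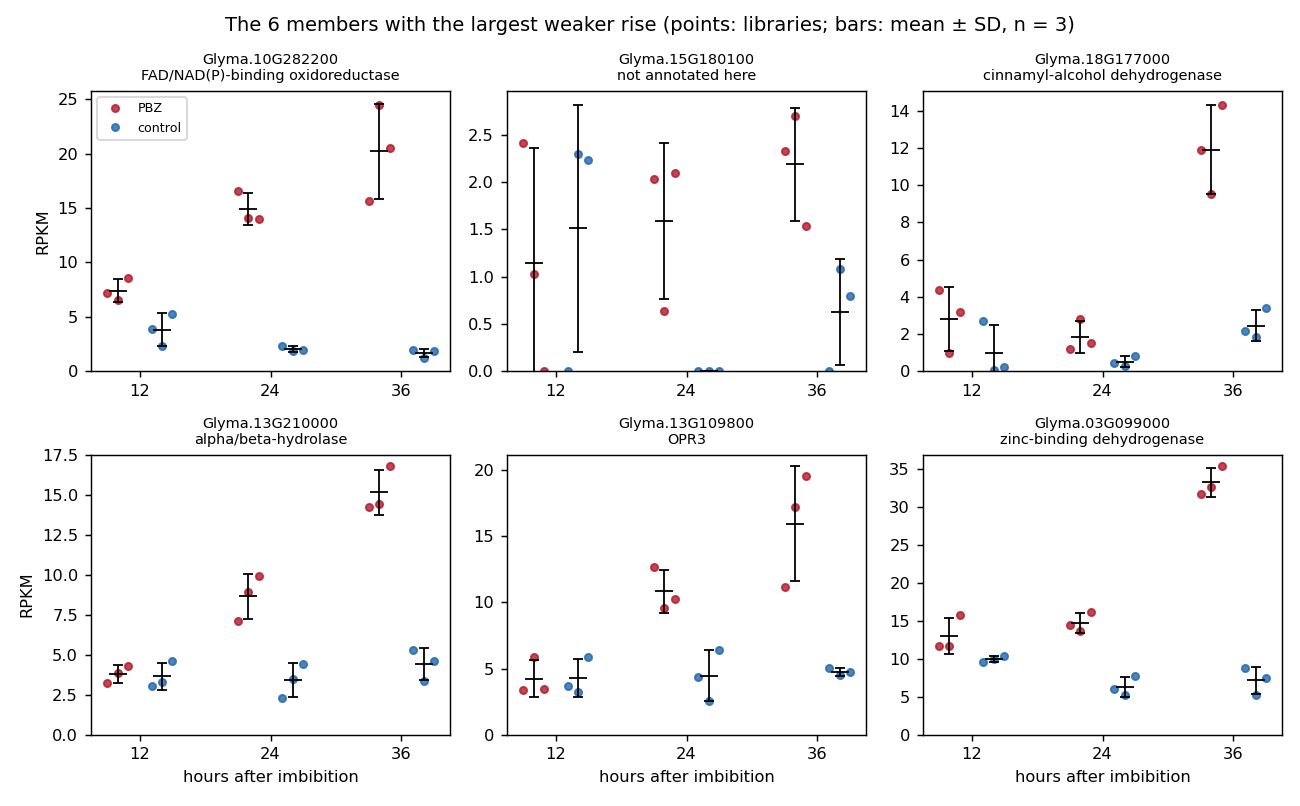
RPKM of the 6 genes with the largest weaker rise by hours after imbibition, with a point per library (PBZ left of control) and bars for the mean ± SD of 3 replicates (a lower bar that would pass below 0 is not drawn). Glyma.10G282200 and Glyma.03G099000 are separated at all 3 times, whereas Glyma.13G210000 and Glyma.13G109800 are separated at 24 and 36 HAI. The control of Glyma.15G180100 is at 0 at 24 HAI.

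UDP-glycosyltransferases (UGTs), which attach sugars to hormones, phenolics and other small molecules, formed the largest annotated family, with 10 members. Their median log2 change was 0.68 at 24 HAI and 1.36 at 36 HAI, and the change at 36 HAI was the larger one in each except Glyma.08G244800. At 12 HAI 10 of 10 were higher with PBZ by their means (47.4% of all genes), with a median of 0.34. The groups were free of overlap in only 1 (3.82% of all genes). Since annotation may depend partly on the 12 HAI values, these counts too are a description and were not tested. Only uniquely mapped reads were counted, so values of any near-identical copies are less certain than those of single genes.

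3 of the UGTs belong to the UGT73C group, whose Arabidopsis members include enzymes that glucosylate brassinosteroids. Glyma.03G186900 had 4.15, 4.07 and 4.41 RPKM with PBZ, against 1.06, 1.37 and 1.05 RPKM in the control at 36 HAI. Its direct neighbour Glyma.03G187000 had 11.5, 21.6 and 12.5 RPKM with PBZ, against 4.67, 9.22 and 3.19 RPKM in the control. Glyma.19G187000 had 53.3, 35.1 and 48.8 RPKM with PBZ, against 21.5, 15.9 and 16.3 RPKM in the control. The groups did not overlap, but in Glyma.03G187000 the lowest PBZ library was not far above the highest control library. The changes of the neighbours were 1.78 ± 0.16 and 1.48 ± 0.40 (SE). At 12 HAI the PBZ libraries of these genes were spread widely, as in Glyma.19G187000, which had 16.1, 45.9 and 33.7 RPKM with PBZ, against 17.3, 28.9 and 27.8 RPKM in the control.

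Glyma.11G000500 (UGT73B3), Glyma.14G054400 (UGT89B1) and Glyma.02G104300 (UGT73B4) were the UGTs with the highest means at 12 HAI in both treatments. Glyma.11G000500 had 193, 159 and 209 RPKM with PBZ, against 79.5, 65.4 and 68.2 RPKM in the control at 36 HAI. Glyma.14G054400 had 77.0, 72.8 and 86.3 RPKM with PBZ, against 35.3, 25.8 and 33.2 RPKM in the control. In both, the PBZ level at 36 HAI was near that at 12 HAI, with changes of 0.04 and -0.10, and control axes were lower than at 12 HAI, with changes of -1.09 and -1.24. At 24 HAI Glyma.11G000500 was lower than at 12 HAI in both treatments, with 104, 98.3 and 118 RPKM with PBZ, against 66.4, 57.2 and 82.8 RPKM in the control. Glyma.02G104300 had 31.9, 26.6 and 36.0 RPKM with PBZ, against 13.9, 10.8 and 13.6 RPKM in the control, and Glyma.02G104500, also UGT73B4 and 2 gene models away, had 9.18, 9.33 and 10.4 RPKM with PBZ, against 4.63, 4.26 and 5.04 RPKM in the control. The means of both were lower at 36 than at 12 HAI in both treatments, in Glyma.02G104300 with changes of -0.87 with PBZ and -1.91 in the control.

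Glyma.08G338100 and Glyma.09G128300 had higher levels at 36 than at 12 HAI in both treatments. Glyma.08G338100 (UGT72B1) had 22.8, 16.8 and 26.5 RPKM with PBZ, against 9.51, 5.16 and 8.49 RPKM in the control at 36 HAI, and between 12 and 36 HAI it changed by 3.47 with PBZ and 2.51 in the control. It was the UGT without overlap at 12 HAI, with 1.63, 2.08 and 1.92 RPKM with PBZ, against 1.43, 1.09 and 1.21 RPKM in the control, a change of 0.56 ± 0.24 (SE) and an adjusted p of 0.97 in limma. Glyma.09G128300 (UGT88A1) had 17.5, 12.8 and 17.4 RPKM with PBZ, against 6.44, 5.25 and 5.74 RPKM in the control at 36 HAI. Glyma.08G244800, listed as a 7-deoxyloganetic acid glucosyltransferase, was the exception in timing, with changes of 1.13 ± 0.25 at 24 HAI and 0.73 ± 0.16 at 36 HAI (SE).

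Glutathione S-transferases and transporters that move small molecules were present with 2 members of each annotated family. The glutathione S-transferases are named after their values were seen. Glyma.03G176300 (GSTL3) had 115, 77.2 and 122 RPKM with PBZ, against 56.3, 23.9 and 57.9 RPKM in the control at 36 HAI. Glyma.15G252200 (GSTU19) had 33.5, 34.6 and 37.4 RPKM with PBZ, against 13.5, 19.4 and 21.1 RPKM in the control at 24 HAI and 10.7, 12.7 and 14.3 RPKM with PBZ, against 9.77, 7.96 and 10.6 RPKM in the control at 12 HAI, without overlap at either time. Among ABC transporters, Glyma.19G016400 (ABCB1 type) had 14.3, 11.4 and 16.1 RPKM with PBZ, against 6.55, 4.48 and 5.60 RPKM in the control at 36 HAI. Glyma.19G169400 corresponds to ABCG40, an importer of abscisic acid in Arabidopsis, and was the single member among 7 abscisic acid genes of the study. It had 17.8, 13.7 and 22.8 RPKM with PBZ, against 7.33, 2.60 and 7.65 RPKM in the control at 36 HAI. Both transporters were low at 12 HAI and already without overlap there, Glyma.19G169400 with 0.836, 1.92 and 1.13 RPKM with PBZ, against 0.598, 0.538 and 0.771 RPKM in the control and Glyma.19G016400 with 1.73, 1.30 and 1.25 RPKM with PBZ, against 0.945, 0.884 and 0.835 RPKM in the control.

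All 8 genes that the study listed for BR synthesis were among the 150, at ranks 7 to 29. The study chose that list on these samples, so the count is no independent evidence of a direction. Their median log2 change was 1.05 at 24 HAI and 1.63 at 36 HAI. DWF4 (CYP90B1) carries out the 22-hydroxylation that limits the rate of the pathway in Arabidopsis. Glyma.11G067700 (DWF4) had 7.20, 11.1 and 9.05 RPKM with PBZ, against 3.58, 4.68 and 4.15 RPKM in the control at 24 HAI and 18.6, 31.8 and 19.9 RPKM with PBZ, against 4.18, 9.08 and 5.46 RPKM in the control at 36 HAI. The second DWF4 gene, Glyma.01G175500, had 3.52, 5.17 and 5.85 RPKM with PBZ, against 2.05, 2.94 and 2.77 RPKM in the control at 24 HAI and 5.36, 7.16 and 5.35 RPKM with PBZ, against 2.72, 2.78 and 2.10 RPKM in the control at 36 HAI. Both DWF4 genes were higher at 36 than at 12 HAI with PBZ, by 2.96 and 1.49.

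DWF3 (CPD, CYP90A1) acts next to DWF4 in the same pathway, and its 2 genes had different time courses. Glyma.14G059900 had 35.8, 31.5 and 25.6 RPKM with PBZ, against 19.9, 16.5 and 11.2 RPKM in the control at 24 HAI and 10.4, 12.5 and 13.4 RPKM with PBZ, against 3.75, 2.90 and 3.98 RPKM in the control at 36 HAI. This gene had its highest level at 12 HAI, 36.7, 35.0 and 38.9 RPKM with PBZ, against 26.0, 33.9 and 30.8 RPKM in the control, without overlap, at a change of 0.29 ± 0.13 (SE) and an adjusted p of 0.97 in limma. It was lower at 36 HAI in both treatments, with changes of -1.61 with PBZ and -3.06 in the control. Glyma.02G256800 had 5.35, 6.71 and 5.09 RPKM with PBZ, against 2.59, 2.72 and 2.29 RPKM in the control at 36 HAI and 2.87, 3.16 and 3.24 RPKM with PBZ, against 1.76, 3.09 and 2.20 RPKM in the control at 12 HAI.

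BR6OX2 (CYP85A2) catalyses the last steps to castasterone and brassinolide in Arabidopsis, and 4 genes carry this annotation. The most abundant was Glyma.19G033900, with 20.6, 15.6 and 15.0 RPKM with PBZ, against 8.03, 7.38 and 7.51 RPKM in the control at 24 HAI and 19.5, 23.2 and 18.3 RPKM with PBZ, against 5.11, 10.1 and 6.64 RPKM in the control at 36 HAI. Its control level was about the same at all times, and its PBZ level was higher at the later times than at 12 HAI, 7.51, 5.69 and 10.3 RPKM. Glyma.18G272300 had 9.89, 8.88 and 10.5 RPKM with PBZ, against 4.25, 5.35 and 3.50 RPKM in the control at 24 HAI and 8.10, 9.90 and 7.58 RPKM with PBZ, against 1.84, 2.72 and 1.63 RPKM in the control at 36 HAI, with a control that was lower at each later time. Glyma.13G052900 had 4.13, 3.48 and 2.71 RPKM with PBZ, against 1.17, 1.02 and 1.21 RPKM in the control at 24 HAI and 2.69, 2.28 and 1.37 RPKM with PBZ, against 0.933, 0.693 and 0.917 RPKM in the control at 36 HAI. Glyma.08G250000 had 2.70, 3.33 and 2.78 RPKM with PBZ, against 1.22, 1.86 and 1.46 RPKM in the control at 24 HAI and 1.44, 2.23 and 1.76 RPKM with PBZ, against 0.369, 0.440 and 0.449 RPKM in the control at 36 HAI. In Glyma.08G250000 the means of both treatments were below their 12 HAI level at 36 HAI, with changes of -0.79 with PBZ and -2.94 in the control.

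At 12 HAI the BR synthesis genes were not separated, with Glyma.14G059900 as the exception. A higher mean with PBZ was found in 7 of the 8 and no overlap in 1, beside 47.4% and 3.82% of all genes. The median change was 0.15. Because the study chose the list on these samples, these counts are a description. Their levels at that time ranged between 1.81 RPKM (Glyma.13G052900) and 36.9 RPKM (Glyma.14G059900) with PBZ. The 8 genes thus shared the direction of the PBZ difference at 24 and 36 HAI but not a time course. The 2 genes listed for BKI1, an inhibitor of the BR receptor, were outside the set: Glyma.14G082300 averaged 1.36 ± 0.434 RPKM with PBZ and 0.563 ± 0.137 RPKM in the control (SD, n = 3) at 36 HAI, and Glyma.06G039100 averaged 1.90 ± 0.909 RPKM with PBZ and 0.800 ± 0.272 RPKM in the control, with overlap.

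**Figure D3:**
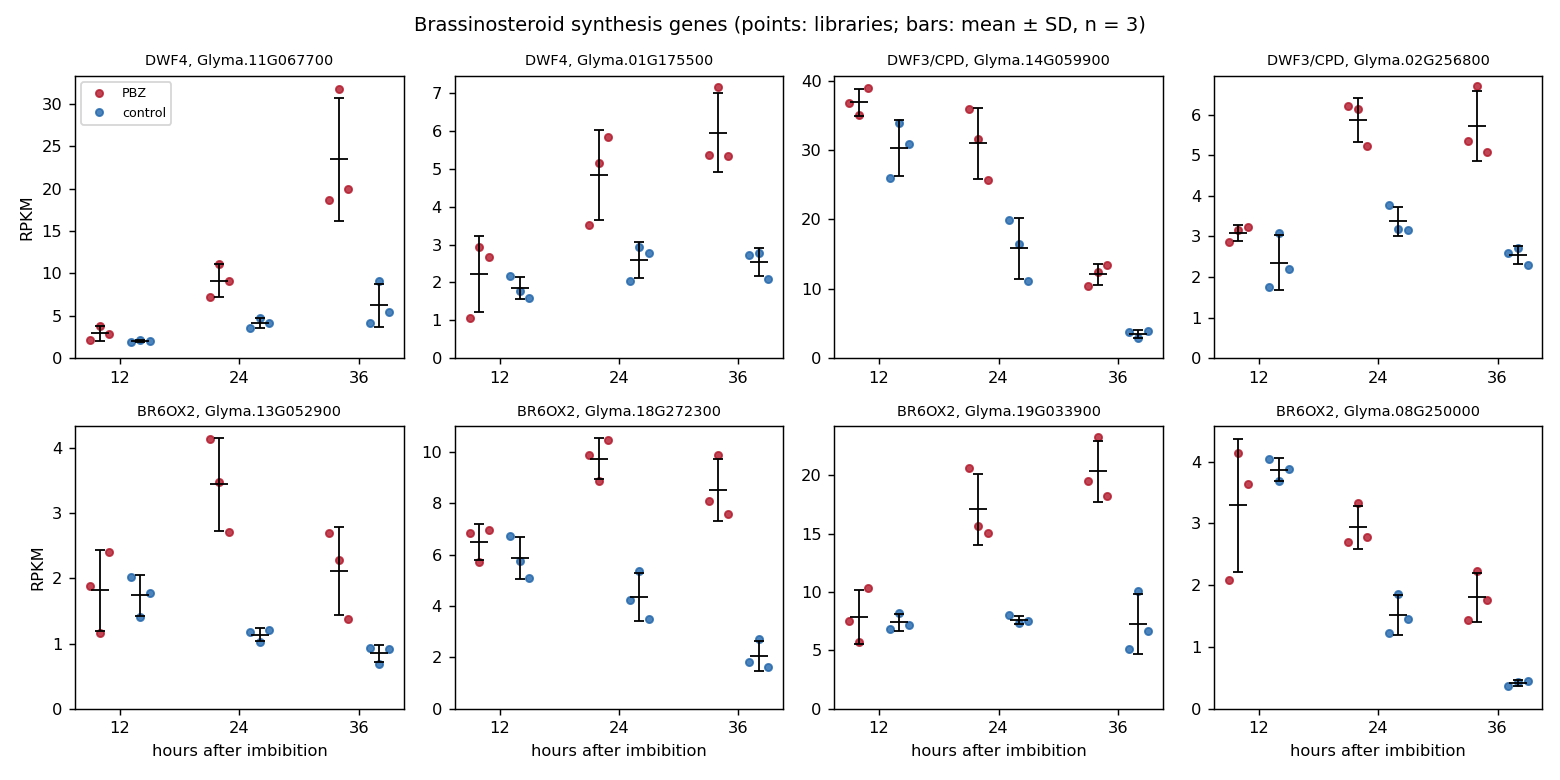
RPKM of the 8 BR synthesis genes by hours after imbibition, a point per library (PBZ left of control) with bars for the mean ± SD of 3 replicates. At 24 and 36 HAI the PBZ points lie above the control points in each panel, whereas the time courses differ: Glyma.11G067700 climbs, Glyma.14G059900 and Glyma.08G250000 descend.

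Of 40 genes listed for GA synthesis, inactivation, transport, reception and DELLA proteins, 3 were among the 150 (7.5%). The 150 are 0.268% of all genes in the table and 0.511% of the genes with the PBZ level required of members. The study described the GA transporters of that list as up-regulated by PBZ in these samples. It also reported GA 20-oxidase and GA 3-oxidase genes as higher with PBZ at 24 and 36 HAI, though outside its statistical thresholds. The share of the list is therefore no independent evidence and was not tested. Glyma.07G236100 (GA2OX4), a GA-inactivating 2-oxidase, had 1.60, 1.55 and 1.76 RPKM with PBZ, against 0.792, 1.17 and 0.989 RPKM in the control at 24 HAI and 2.63, 2.86 and 2.39 RPKM with PBZ, against 0.847, 0.903 and 0.500 RPKM in the control at 36 HAI. At 12 HAI it was at most 0.225 RPKM in any library and was not tested. The GA 20-oxidase Glyma.09G149200 had 8.68, 12.8 and 7.60 RPKM with PBZ, against 5.87, 6.59 and 6.59 RPKM in the control at 36 HAI, a change of 0.57 ± 0.19 (SE), and was one of the weaker members, at rank 134. Glyma.03G122500, of the NPF3 group whose Arabidopsis member transports GA, had 34.9, 29.7 and 32.3 RPKM with PBZ, against 12.9, 19.6 and 21.0 RPKM in the control at 24 HAI and 68.8, 57.2 and 80.7 RPKM with PBZ, against 26.8, 17.1 and 30.4 RPKM in the control at 36 HAI. Outside the list, Glyma.01G081600, annotated as NRT1/PTR family 3.1 and named after its values were seen, was also a member, at rank 99. Its changes were smaller, 0.37 ± 0.15 at 24 HAI and 0.41 ± 0.12 at 36 HAI (SE).

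Over the whole GA list, each PBZ library exceeded each control library in 6 of 35 tested genes at 24 HAI, beside 11.4% of all genes. At 36 HAI this order held in 4 of 37, beside 11.0%. The 3 members are in both counts by the rule that chose them, so these counts are a description. The limma counts below also include these 3 genes, which were chosen by the same values. The opposite order was found in 10 genes at 24 HAI, beside 22.8% of all genes, and in 2 at 36 HAI, beside 4.77%. Limma placed 0 of the list past both limits (adjusted p of at most 0.05 and a change of at least 1) in the higher direction at either time, beside 0.716% of all genes at 24 HAI and 0.0885% at 36 HAI. In the lower direction 1 gene passed at 24 HAI and 0 at 36 HAI, beside 0.202% and 0.0397% of all genes. At an unadjusted p of at most 0.05 in limma, 6 were higher and 8 lower at 24 HAI, beside 9.77% and 16.7% of all genes, and 7 were higher and 3 lower at 36 HAI, beside 5.61% and 3.24%. The gene that passed was Glyma.15G135200, listed for early GA synthesis, which averaged 7.77 ± 1.99 RPKM with PBZ and 15.8 ± 2.13 RPKM in the control (SD, n = 3) at 24 HAI, a change of -1.04 ± 0.21 (SE) with an adjusted p of 0.047. None of the 11 DELLA genes, 5 GID1 genes or 8 genes of early GA synthesis was a member. The DELLA gene with the highest level, Glyma.11G216500, averaged 63.0 ± 6.02 RPKM with PBZ and 62.9 ± 6.81 RPKM in the control (SD, n = 3) at 36 HAI. The second NPF3 gene of the list, Glyma.03G123000, close to Glyma.03G122500, was higher with PBZ without overlap at 24 HAI, 21.4 ± 4.17 RPKM with PBZ and 15.4 ± 0.239 RPKM in the control, and overlapped at 36 HAI, 8.54 ± 2.73 RPKM with PBZ and 4.02 ± 1.65 RPKM in the control. Despite the overlap, both NPF3 genes of the list were higher at an unadjusted p of at most 0.05 in limma at 36 HAI. The study called 2 NPF3 genes strongly up-regulated at that time.

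Other lists of the study were mostly chosen on these samples, so their shares are no independent evidence. Of 45 transcription factors 2 were members (4.44%), and of 44 cell wall genes also 2 (4.55%), whereas the 150 are 0.268% of all genes. Glyma.10G011300 (WRKY23) had 8.25, 10.8 and 8.08 RPKM with PBZ, against 3.97, 3.37 and 3.98 RPKM in the control at 36 HAI, and Glyma.03G007500 (MYB117) had 10.1, 10.5 and 10.5 RPKM with PBZ, against 4.30, 5.45 and 5.17 RPKM in the control. MYB117, also known as LOF1 and involved in organ separation in Arabidopsis, had replicates that differed little within a group. Of the cell wall genes, Glyma.17G052900 (peroxidase 59) had 1.25, 1.44 and 0.762 RPKM with PBZ, against 0.287, 0.230 and 0.551 RPKM in the control at 36 HAI, and Glyma.04G208400 (beta-galactosidase MUM2, which in Arabidopsis modifies seed coat mucilage) had 3.88, 4.23 and 3.98 RPKM with PBZ, against 1.59, 1.87 and 1.89 RPKM in the control. The lists for auxin (16 genes), cytokinin (7), ethylene (3) and jasmonic acid (2) held 0 members.

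Several unannotated members ranked beside the named families, and 3 of them with differing time courses are given here, chosen after their values were seen. Glyma.17G034900, at rank 18, had 79.9, 73.4 and 87.6 RPKM with PBZ, against 35.6, 38.7 and 52.5 RPKM in the control at 24 HAI and 70.5, 73.3 and 79.4 RPKM with PBZ, against 43.3, 28.2 and 49.8 RPKM in the control at 36 HAI, and its 12 HAI groups, 101, 97.0 and 111 RPKM with PBZ, against 61.6, 84.9 and 95.4 RPKM in the control, were also free of overlap. Glyma.18G050600, at rank 27, was at its highest at 12 HAI, 137, 78.8 and 119 RPKM with PBZ, against 97.8, 93.1 and 129.9 RPKM in the control, where the groups overlapped, and had 46.7, 39.8 and 38.4 RPKM with PBZ, against 18.4, 20.3 and 30.3 RPKM in the control at 24 HAI. Glyma.15G224100, at rank 24, had 20.2, 7.62 and 16.4 RPKM with PBZ, against 4.09, 4.63 and 9.34 RPKM in the control at 12 HAI, a change of 1.26 ± 0.41 (SE) with overlap and an adjusted p of 0.92 in limma, and 5.68, 3.57 and 4.86 RPKM with PBZ, against 2.05, 3.28 and 1.79 RPKM in the control at 24 HAI.

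Further annotated members, named after their values were seen, had other roles. Glyma.16G039600, a spermidine hydroxycinnamoyl transferase that forms phenolic amides, had 22.7, 23.0 and 29.8 RPKM with PBZ, against 12.2, 10.6 and 11.1 RPKM in the control at 36 HAI and no overlap at 12 HAI, 42.8, 42.1 and 48.0 RPKM with PBZ, against 33.3, 35.8 and 36.0 RPKM in the control. Glyma.10G193500, the iron superoxide dismutase FSD2, had 32.8, 27.0 and 32.9 RPKM with PBZ, against 17.5, 17.1 and 16.9 RPKM in the control at 36 HAI. Glyma.05G057100, of the lipid-transfer and 2S albumin superfamily, had 59.5, 57.5 and 57.8 RPKM with PBZ, against 25.5, 19.6 and 29.9 RPKM in the control at 36 HAI, whereas at 12 HAI its mean was lower with PBZ, 2.33, 1.70 and 3.79 RPKM with PBZ, against 4.39, 3.83 and 3.07 RPKM in the control, with overlap.

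**Figure D4:**
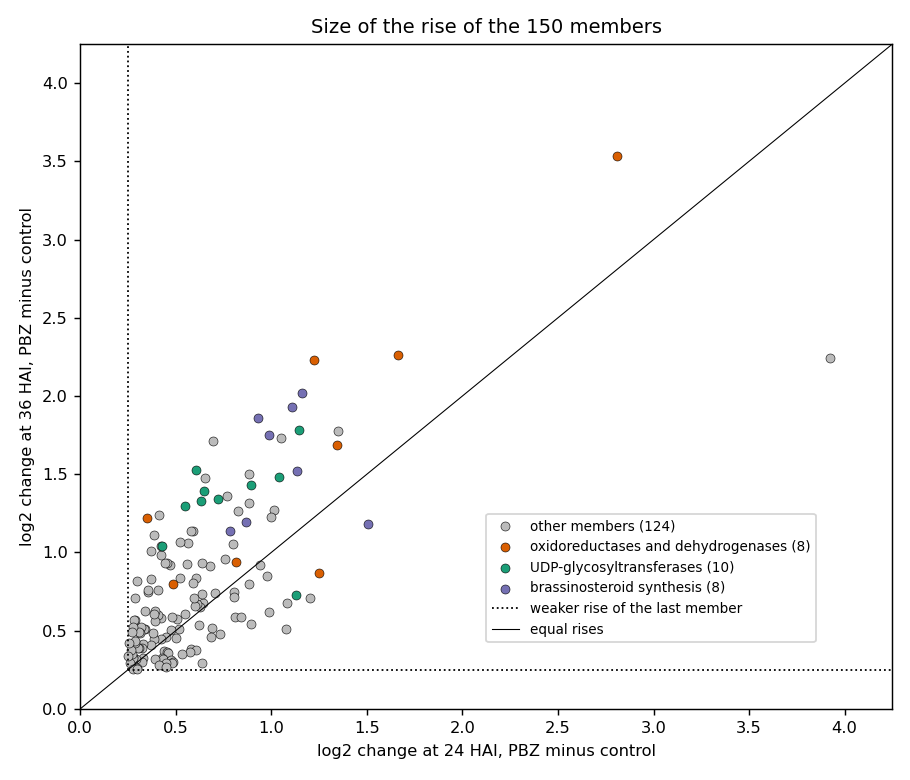
Log2 change (PBZ minus control) at 24 HAI (x) and 36 HAI (y) of the 150 genes, coloured by annotated family; dotted lines mark the weaker rise of the last member and the solid line equal changes. Most points lie above the solid line, as 105 genes had their weaker rise at 24 HAI, and the isolated point at the right is Glyma.15G180100, whose position is set by a control listed at 0.

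The 12 HAI comparison asked whether the same genes already differed earlier, in libraries that had no part in choosing them. Of the 150, 145 had a group mean of at least 1 RPKM and were tested in limma among 29297 genes. 0 of the 145 passed both limits in either direction, beside 0.00683% of all genes (2 genes) higher and 0.00341% (1 gene) lower with PBZ, and the smallest adjusted p of a member was 0.82. At an unadjusted p of at most 0.05, 16 members were higher with PBZ (11.0%), beside 2.11% of all genes, and 0 were lower, beside 2.94%. These counts depended on single libraries: 7 were higher without control replicate 1 (4.86%, beside 1.63% of all genes) and 8 without PBZ replicate 3 (5.52%, beside 1.84%), against 26 without PBZ replicate 2 (18.1%, beside 6.34%). Between 0 and 5 were lower with 1 library left out, the 5 without PBZ replicate 3 (3.45%, beside 3.85%). By their means 95 members were higher (65.5%), beside 47.4% of all genes. Their median change was 0.14, with quartiles of -0.07 and 0.32, and that of all genes was -0.01, with quartiles of -0.14 and 0.12.

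In 22 members (15.2%) each PBZ library exceeded each control library at 12 HAI, beside 3.82% of all genes, and in 1 (0.690%) each was below, beside 6.74%. Without control replicate 2, a comparison added after the data were seen because that library stood apart, there were 33 (22.8%), beside 10.5% of all genes, and 2 in the other direction (1.38%), beside 8.14%. Without PBZ replicate 1 or PBZ replicate 2 there were 43 (29.7%) and 50 (34.5%), beside 7.31% and 14.4%. Without control replicate 1, control replicate 3 or PBZ replicate 3 there were 28, 28 and 25, beside 5.72%, 5.76% and 7.18%. In the other direction, leaving out 1 library gave 2 to 10 members, and the 10, without PBZ replicate 3, were 6.90%, beside 13.3%. The mean log2(RPKM + 0.1) over the 150 was 3.32, 3.24 and 3.40 in the PBZ libraries, against 3.10, 3.21 and 3.15 in the control libraries. The lowest PBZ library was thus slightly above the highest control library, which was replicate 2. At 24 HAI the means were 3.69, 3.57 and 3.60 with PBZ, against 2.91, 2.97 and 3.08 in the control. At 36 HAI they were 3.76, 3.75 and 3.77 with PBZ, against 2.94, 2.88 and 3.02 in the control.

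The 12 HAI differences were larger in the members with the larger later rises. Of the members ranked 1 to 50, 41 of 45 tested had a higher mean with PBZ, with a median change of 0.37, and 12 had no overlap. Of those ranked 51 to 100 it was 35 of 50, with a median of 0.18 and 6 without overlap. Of those ranked 101 to 150 it was 19 of 50, with a median of -0.04, and 4 without overlap upwards and 1 downwards. Among all genes tested, 47.4% had a higher mean with PBZ, 3.82% had no overlap upwards and 6.74% downwards. The members ranked 101 to 150 thus lay under the share of all genes for a higher mean. Across the 145 genes, which are not independent replicates, the change at 12 HAI had a Pearson's r of 0.33 and a Spearman's rho of 0.43 with the change at 24 HAI, and 0.33 and 0.37 with that at 36 HAI.

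**Figure D5:**
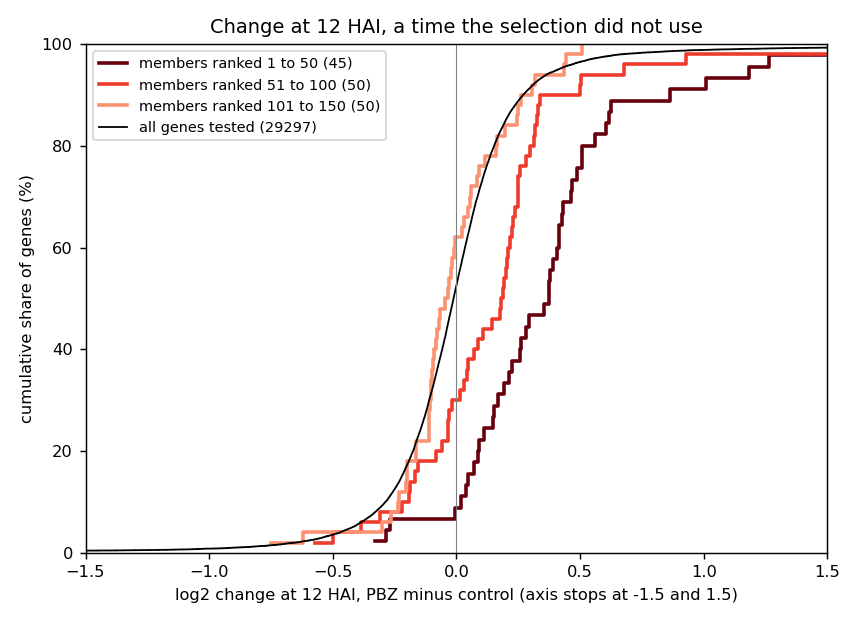
Cumulative share of genes (%) by log2 change at 12 HAI, PBZ minus control, for members in 3 bands of rank and for all 29297 genes tested. The curve of the 45 members ranked 1 to 50 lies right of that of all genes (medians 0.37 and -0.01), and that of ranks 101 to 150 lies close to it (median -0.04).

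The 5 members with the largest changes among those without overlap at 12 HAI were Glyma.12G019800, Glyma.10G282200, Glyma.19G169400, Glyma.19G016400 and Glyma.08G338100. They are 2 oxidoreductases, 2 ABC transporters and a UGT, with changes of 1.18, 1.01, 0.86, 0.62 and 0.56. The member with the opposite order was Glyma.14G070900, which is not annotated here. It had 5.70, 5.87 and 6.46 RPKM with PBZ, against 6.57, 7.45 and 6.79 RPKM in the control at 12 HAI, a change of -0.20 ± 0.13 (SE), and 5.77, 5.61 and 4.95 RPKM with PBZ, against 3.62, 3.90 and 3.84 RPKM in the control at 36 HAI.

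Over time, more of the 150 were lower than higher in the control, whereas the PBZ axes held similar numbers of both. In control axes the median change between 12 and 36 HAI was -0.46, and in PBZ axes it was 0.14. Each 36 HAI control library was below each 12 HAI control library in 80 of 149 members (53.7%), beside 36.6% of all genes, and above in 37 (24.8%), beside 39.9%. With PBZ each 36 HAI library was below in 47 of 150 (31.3%), beside 33.8% of all genes, and above in 64 (42.7%), beside 41.4%. Between 12 and 24 HAI the control was lower in 77 of 144 members (53.5%), beside 30.6%, and PBZ in 43 of 150 (28.7%), beside 28.6%. Because the members were chosen for low control and high PBZ values at 24 and 36 HAI, these shares are partly fixed by the choice. The group with the highest mean was 36 HAI PBZ in 59 members (39.3%), 12 HAI PBZ in 46 (30.7%), 24 HAI PBZ in 29 (19.3%) and 12 HAI control in 16 (10.7%). Over the 29364 genes with the required PBZ level, these shares were 18.5%, 24.8%, 10.3% and 14.5%. By the rule neither the 24 nor the 36 HAI control can be highest in a member, whereas they were in 16.8% and 15.0% of those genes. The larger shares of the PBZ groups are therefore also partly fixed by the choice.

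The largest increases over time, but not the largest decreases, were found in the same genes in both treatments. Glyma.14G199900 averaged 0.298 ± 0.136 RPKM with PBZ and 0.313 ± 0.201 RPKM in the control (SD, n = 3) at 12 HAI and 23.4 ± 6.94 RPKM with PBZ and 14.1 ± 4.40 RPKM in the control at 36 HAI. Glyma.13G091400 was listed at 0 in each 12 HAI library and averaged 4.88 ± 1.34 RPKM with PBZ and 2.07 ± 1.05 RPKM in the control at 36 HAI. Neither is annotated here, and with Glyma.12G019800 they had the largest increases in both treatments. The largest decreases with PBZ were those of Glyma.04G026600, Glyma.09G173200 and Glyma.07G140700, with changes of -2.27, -2.19 and -2.01, which are not annotated here. In the control they were those of Glyma.18G242900 (serine carboxypeptidase-like 20), Glyma.14G059900 (DWF3) and Glyma.08G250000 (BR6OX2), with -3.13, -3.06 and -2.94. Glyma.18G242900 had 2.14, 3.17 and 2.47 RPKM with PBZ, against 1.12, 0.661 and 1.09 RPKM in the control at 36 HAI and 8.98, 9.92 and 10.3 RPKM with PBZ, against 7.82, 10.2 and 9.02 RPKM in the control at 12 HAI.

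The members were spread over all 20 chromosomes, and 27 of them lay at most 10 gene models from another member, by the order of the identifiers, in 12 pairs and 1 group of 3. No matching number for other genes is given, so whether this is many was not tested. In 3 of these pairs both genes had the same annotated family, the UGT pairs on chromosomes 2 and 3 and the oxidoreductase pair on chromosome 3. Other annotated genes had a neighbour without annotation here. Glyma.01G102600 lay beside Glyma.01G102700, which had 242, 217 and 242 RPKM with PBZ, against 120.1, 98.9 and 119 RPKM in the control at 36 HAI. Glyma.03G248400 lay beside Glyma.03G248500, with 56.8, 47.0 and 61.4 RPKM with PBZ, against 36.1, 28.5 and 46.8 RPKM in the control. Glyma.09G128300 lay beside Glyma.09G128400, with 17.6, 14.2 and 18.4 RPKM with PBZ, against 10.7, 9.06 and 10.7 RPKM in the control, and Glyma.11G000500 lay 2 gene models from Glyma.11G000300, with 26.3, 23.8 and 25.9 RPKM with PBZ, against 19.5, 18.9 and 21.0 RPKM in the control. The levels of neighbours could differ widely, as in Glyma.03G248400 and Glyma.03G248500.

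The group of 3 lay on chromosome 7. Glyma.07G140000 had 100.4, 76.7 and 80.2 RPKM with PBZ, against 53.3, 51.5 and 59.8 RPKM in the control at 24 HAI, Glyma.07G140400 had 371, 364 and 363 RPKM with PBZ, against 299, 260.2 and 282 RPKM in the control and Glyma.07G140700 had 56.3, 31.4 and 33.9 RPKM with PBZ, against 27.4, 20.8 and 25.2 RPKM in the control. All 3 were abundant at 12 HAI and overlapped there, with changes of 0.26, 0.05 and -0.03. The remaining pairs were Glyma.04G208400 with Glyma.04G209100, Glyma.08G117600 with Glyma.08G118100, Glyma.08G327400 with Glyma.08G328000, Glyma.14G070900 with Glyma.14G071200 and Glyma.17G258400 with Glyma.17G259400. In these 5 pairs the weaker rise was between 0.252 and 0.749. Sequences and promoters of the members were not analysed here.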

How the data were processed

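Embryonic axes were sequenced as 18 RNA-seq libraries, 3 biological replicates in each of 6 groups. The authors removed rRNA reads, aligned the rest to Wm82.a2.v1 with Novoalign 3.06.05, kept uniquely mapped reads and deposited RPKM values computed with Cufflinks 2.1.1 for 56044 genes. Each SD is the spread of the replicates. Each SE comes from limma, which draws the variance of a gene toward the trend over all genes. Since RPKM gives no counts, counting error was not estimated apart from the replicate spread. Each column was matched to a sample by its title, and 0 were left over.

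Members and gene lists were chosen with earlier results of these data known. Log2(RPKM + 0.1) was compared at 12 HAI with limma 3.58.1 (R 4.3.3, mean-variance trend, Benjamini-Hochberg adjustment) for genes averaging 1 RPKM or more in either group. Both limits together mean an adjusted p of at most 0.05 with a change of at least 1. Pseudocounted changes understate those of low genes. The limma step was tested on simulated data. Python 3.11.15 with pandas 2.3.3 did the rest.

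Genes named are the 10 largest weaker rises, members of the hormone, cell wall and transcription factor lists, members of annotated families with 3 or more members, neighbours within 10 gene models, the 5 largest non-overlapping changes at 12 HAI each way, the 3 largest changes each way between 12 and 36 HAI, and genes at the limit of 150. Exceptions are stated. Names come from the annotation columns of the study. The RefSeq table for Glycine_max_v4.0 matched 0 identifiers. Fold changes and p-values in the tables of the study were not used. Alternatives were other pseudocounts, filters, scalings, fits and left-out replicates.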

Additional observations from a re-analysis of the deposited data

Results flagged for a closer look

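Glyma.14G070900 was flagged because its difference between PBZ and control ran one way at 12 HAI and the other way at 24 and 36 HAI, with no overlap between the groups at any of these times. The log2 change, PBZ minus control, took the value -0.20 at the first time, followed by 0.34 and 0.51. The difference between the times was not tested, and the values at 24 and 36 HAI are those that chose the gene. Groups of 3 replicates were too small for a search for single outlying libraries.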

How the results depend on the processing

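At 12 HAI 0 members passed both limits in either direction under each of the 16 alternatives in limma, the number with a higher mean ranged between 70 and 104, and the median change ranged between 0.09 and 0.16. With the filter at 5 RPKM, which gave the 70, only 104 members were tested. Blocking on the replicate number, the counts past both limits were also 0, with 95 members higher and a smallest adjusted p of 0.46. At an unadjusted p of at most 0.05, where 16 members were higher and 0 lower, the block gave 25 and 1, the fit of all 18 samples 28 and 4, and leaving out 1 library 7 to 26 and 0 to 5. The members without overlap numbered 25 to 50 upwards and 2 to 10 downwards with 1 library left out, compared with 22 and 1 over all libraries; these counts and those at an unadjusted p were added after the data were seen. Fewer libraries make such separation easier by construction, also over all genes.

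Correlations of the deviations of same-numbered samples were 0.03 to 0.26 at 12 HAI, 0.06 to 0.23 at 24 HAI and 0.07 to 0.28 at 36 HAI. All 9 were positive, as were 6 of the 18 between other numbers. Since 1 of 3 pairs at each time was under 0.1 and nothing in the labels ties the numbers, they were not taken to pair the samples in the main fit. The paper used a paired t-test of control against PBZ for its RT-qPCR, so a pairing remains possible. The fit with a replicate block is given above for that case. At 12 HAI PBZ replicate 3 correlated best with another number.

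The choice of genes also depended on single libraries. Leaving out 1 library at a time kept 81 to 138 of the 150, the lowest without 36 HAI control replicate 3, when 590 genes qualified. The median weaker rise of 0.46 was 0.39 with a pseudocount of 1, which shrinks changes of low genes by construction, and 0.42 to 0.49 with 1 library left out. Median-ratio size factors kept 130. RPKM gives no counts, so genes near 1 RPKM, such as Glyma.15G180100, have an unknown counting error, and 25 members were under 1 RPKM in at least 1 library.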
